A study of Mus musculus with 2 samples.

Results

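Slpi, Wfdc2, Wfdc17 and Wfdc21 encode secreted proteins built on the whey acidic protein (WAP) domain, and were followed from cell type to cell type in tumours of the pancreas of KPPC mice. They are 4 of the 32285 genes listed in the count tables, taken by symbol, and all 4 were found. They were chosen with their levels in these libraries known, so every level and ratio below is a description without a test. Single-cell RNA was measured in 2 tumour samples, both from KPPC mice 6 weeks old, of which 1 library came from vehicle and 1 from takinib at 50 mg/kg given for 14 days. KPPC is the usual name for a genetically engineered model of pancreatic ductal cancer, and the labels spell out no alleles. Takinib is a small-molecule inhibitor of the kinase TAK1. How many mice or tumours each library pooled is not given in the labels. With 1 library in each group, nothing here can be set against a spread between replicates, and p-values are left out. Values in square brackets are exact 95% intervals (Poisson for counts, Clopper-Pearson for shares of cells, conditional binomial for ratios) and cover counting error only.

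The WAP domain is a small fold held by disulphide bonds, and several proteins that carry it block serine proteases. Slpi, secretory leukocyte protease inhibitor, is known as an inhibitor of the neutrophil proteases elastase and cathepsin G that is made by mucosal epithelium and by phagocytes. Wfdc2, also called HE4, is an epithelial secreted protein and, in humans, a serum marker of ovarian cancer. Wfdc17 and Wfdc21 are mouse genes known from activated macrophages and other myeloid cells, Wfdc17 under the name activated macrophage/microglia WAP domain protein.

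The filters left 9280 vehicle cells with 40578551 UMIs and 25183 takinib cells with 119726977 UMIs. A UMI, or unique molecular identifier, tags 1 captured RNA molecule. The libraries differed in more than treatment. Median depth was 3550.5 UMIs per vehicle cell and 2887 per takinib cell, and the median mitochondrial share was 8.71% against 1.79%. Of the vehicle cells, 1044 held UMIs of Xist and none of Y-linked genes and 2993 the reverse, while 14324 takinib cells were of the first kind and 0 of the second. There were 269 vehicle and 11369 takinib cells of the neutrophil-like class. Epithelial-like cells, with keratin and Epcam transcripts, numbered 1622 and 1874, and the exocrine pancreas was present as 40 and 15 acinar-like cells. Cell classes were rebuilt from marker genes with the WAP-domain genes left out of the clustering, and 2.75% and 6.6% of the cells stayed in unnamed clusters. The libraries shared 355 cell barcodes. Library preparation and treatment cannot be told apart in this design.

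The 4 genes lie in 2 places of the mouse genome (GRCm38, GENCODE M21). Slpi spans chr2:164354070-164389095 on the minus strand and Wfdc2 chr2:164562413-164568510 on the plus strand, 173 kb apart. Wfdc17 (chr11:83703991-83706268) and Wfdc21 (chr11:83746940-83752642) are 40.7 kb apart on the plus strand, with Wfdc18 between them. All are protein coding. The gene model of Slpi overlaps a microRNA gene, Mir7678, on the same strand. The longest run of bases that a member's transcripts share with another WAP-domain gene was 30 bases, between Wfdc17 and Wfdc18. Both sequences shown next come from the windows upstream of the start sites of members whose transcripts were abundant in takinib neutrophil-like cells. RefSeq (GRCm38.p6) gave upstream windows of 250 bases for 3 of the 4 genes, all but Wfdc21, and only bases outside annotated exons are printed, 5′ to 3′ on the gene's strand, with a motif match in capitals.
Slpi, chr2:164356508-164356757, minus strand: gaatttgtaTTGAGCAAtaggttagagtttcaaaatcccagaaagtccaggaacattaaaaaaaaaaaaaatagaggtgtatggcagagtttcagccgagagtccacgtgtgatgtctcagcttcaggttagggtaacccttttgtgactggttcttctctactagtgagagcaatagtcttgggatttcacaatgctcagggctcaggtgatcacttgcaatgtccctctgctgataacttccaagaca
Wfdc17, chr11:83703806-83703990, plus strand: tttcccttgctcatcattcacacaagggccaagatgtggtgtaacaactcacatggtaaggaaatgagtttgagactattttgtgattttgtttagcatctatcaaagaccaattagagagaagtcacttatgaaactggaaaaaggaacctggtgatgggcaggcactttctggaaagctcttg
The capitals in Slpi mark a match to TTGCNNAA, a C/EBP-type motif, read on the opposite strand. Searched on both strands in these windows, TTGCNNAA was found in 9.55% of 27025 RefSeq promoters, and in Slpi alone of the 3 genes with an entry. TGANTCA (AP-1) occurred in 6.87% of promoters and matched none of the 3. An NF-kB-type motif (GGG, any 5 bases, then CC) occurred in 45.4% and matched Wfdc2, in bases of an annotated exon. GAGGAA (ETS type) occurred in 23.1% and matched Wfdc17, in bases of an annotated exon that are not printed. The window of Wfdc2 held 64.8% G and C, against 42% for Slpi and 41.2% for Wfdc17. A match is a description of the letters, not a bound site.

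Summed over all kept cells, every member made up a larger part of the RNA in takinib than in vehicle. Levels are given as CPM, the member's UMIs per 1e6 UMIs of the named cells. Slpi stood at 129 CPM [125 to 132] in vehicle and 2049 CPM [2041 to 2057] in takinib, a log2 ratio of 3.99 [3.95 to 4.03]. Wfdc21, with the highest ratio, stood at 96 and 1842 CPM, log2 4.26 [4.22 to 4.31]. Wfdc17, the most abundant, stood at 1043 and 6493 CPM, log2 2.64 [2.62 to 2.65]. Wfdc2, with the lowest ratio, stood at 168 and 340.1 CPM, log2 1.02 [0.98 to 1.05]. All 4 ratios passed a log2 ratio of 1, which 8.34% of 15570 genes passed upward and 17.3% downward. This ratio was part of what the members were chosen on, and nothing is read from the count. That of Wfdc2 was below 1 under 5 of 11 other settings, down to 0.43 against the vehicle cells with Y-linked UMIs alone. The median gene had a log2 ratio of -0.31, and -0.75 within neutrophil-like cells.

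The members divide by the cells they came from. In takinib, neutrophil-like cells gave 22.1% of all UMIs but 55.7% of Slpi, 48.5% of Wfdc21 and 41.7% of Wfdc17 UMIs. Epithelial-like cells gave 17.9% of all UMIs and 96% of Wfdc2 UMIs, and in vehicle 26.8% and 96.6%. Wfdc2 was thus an epithelial transcript in both libraries. In vehicle, macrophage-like cells gave 93.4% of Wfdc17 and 86.3% of Wfdc21 UMIs. Slpi had a different main source there: an unnamed cluster of 200 cells with fibroblast and mesothelial transcripts gave 53.5% of its UMIs, macrophage-like cells 27.1% and 34 plasma-like cells 13.5%. With the neutrophil-like, immature and precursor cells left out of both libraries, the log2 ratios over all other cells were 3.17 for Slpi, 1.44 for Wfdc2, 2.20 for Wfdc17 and 3.48 for Wfdc21.

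**Figure D1:**
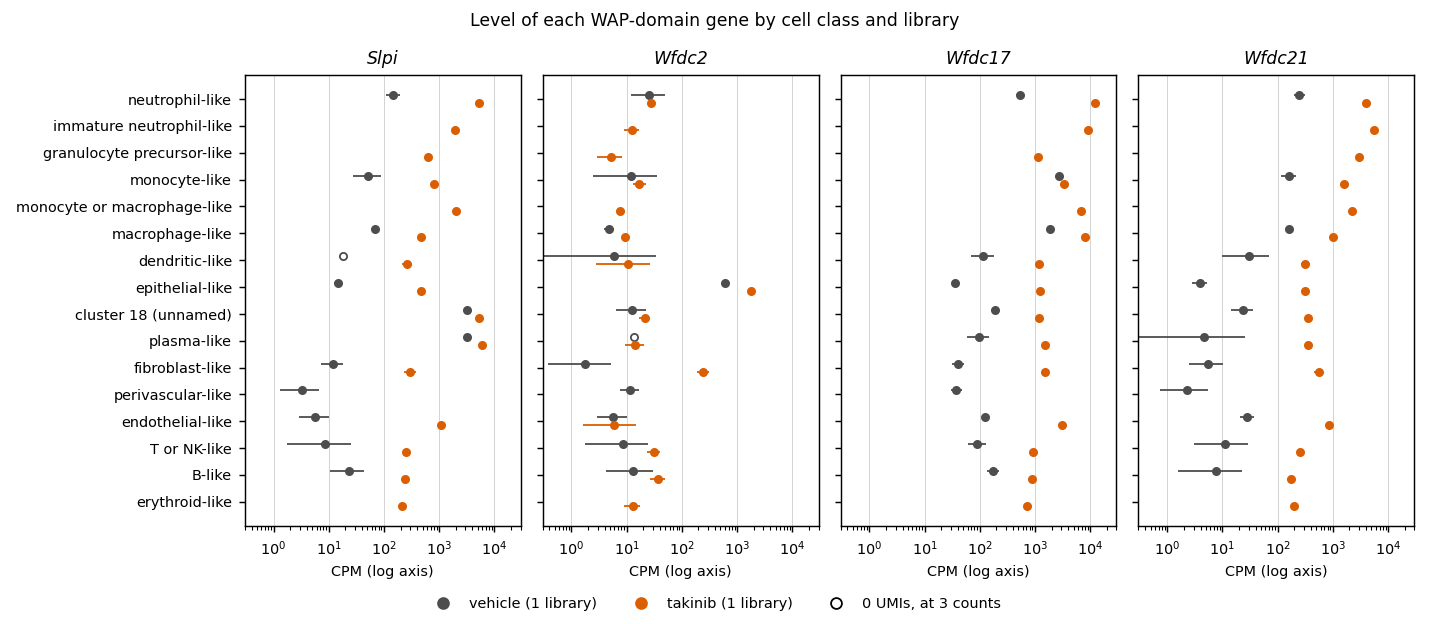
Level of each member (CPM, log axis) in each cell class, with vehicle in grey and takinib in orange, 1 library each, for classes with at least 30 cells. Lines are 95% counting intervals and open circles mark 0 UMIs, drawn at 3 counts. Wfdc2 peaks in epithelial-like cells in both libraries, Wfdc17 in takinib neutrophil-like cells at 12263 CPM, and Slpi in cluster 18 and plasma-like cells in vehicle.

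Slpi was far higher in the takinib neutrophil-like cells than in those of vehicle. It stood at 146 CPM [108 to 191] in vehicle, from 51 UMIs, and at 5178 CPM [5151 to 5206] in takinib, with a UMI in 8.92% [5.8 to 13] and 90.1% [89.6 to 90.7] of cells. After each cell was thinned to 1000 UMIs these shares were 8.55% and 83.6%. T or NK-like cells, which should lack Slpi, had a UMI of it in 1.39% and 18.7% of cells, and after thinning in 1.39% and 12.4%. Median depths were 1210 and 1770 UMIs in neutrophil-like and 1359.5 and 1556 in T or NK-like cells. The vehicle level was above the 73.6 CPM of vehicle free RNA, described below, and the takinib level above that of every other named class but plasma-like cells. Most vehicle cells of the class came from cluster 2, led by Cxcr2, G0s2 and Il1r2, whereas takinib also held cluster 0, led by Ccl4, Acod1 and Cxcl2, and cluster 1, led by Lcn2 and Ccl3. Within cluster 2, with 263 vehicle and 2574 takinib cells, Slpi stood at 116 and 2776 CPM, log2 4.58 [4.13 to 5.06]. Slpi, Wfdc17 and Wfdc21, 3 of the 4 members, passed a log2 ratio of 1 upward in cluster 2, against 10.1% of 6281 genes. S100a8 plus S100a9, neutrophil calprotectin, also differed between the vehicle and takinib cells of cluster 2, at 35066 and 108474 CPM, and the part of that difference in the Slpi ratio was not tested. The vehicle cells of cluster 2 with Y-linked and no Xist UMIs numbered 54 and held 0 Slpi UMIs, an interval of 0 to 51.6 CPM. In the whole neutrophil-like class the same 3 members passed 1 upward, against 7.2% of genes (and 40.9% downward).

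The takinib library held neutrophils of 3 stages, and the members differed in how their levels ran along them. Granulocyte precursor-like cells (258 cells, with Elane, Mpo and Prtn3) held 631 CPM [603 to 659.5] of Slpi, and immature neutrophil-like cells (739 cells, with Ltf, Camp and Ngp) held 1913 CPM [1866 to 1961]. The mature clusters 2, 0 and 1 held 2776, 5599 and 5882 CPM. Slpi was thus lowest in precursor-like and highest in mature cells. Wfdc17 stood at 1112 CPM in precursor-like, 9150.3 in immature and 12821, 13006 and 10443 CPM in clusters 2, 0 and 1. Wfdc21 was already at 2969 CPM in precursor-like and 5555 CPM in immature cells, and at 3379.9, 3380.1 and 5787 CPM in clusters 2, 0 and 1. Cluster 1, led by Lcn2, was thus close to immature cells in Wfdc21 while holding the most Slpi of the 5 clusters. Elane, neutrophil elastase, ran the other way: 3851 CPM in precursor-like cells, 4.6 in immature cells and 7.49, 4.37 and 7.24 CPM in clusters 2, 0 and 1. Prtn3, proteinase 3, stood at 4433 CPM in precursor-like and 50.9 CPM in immature cells. Among these 5 clusters of the takinib library Slpi was thus lowest where the mRNA of Elane and Prtn3 was highest. The vehicle library had 4 precursor-like and 8 immature cells, which allowed no comparison.

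**Figure D2:**
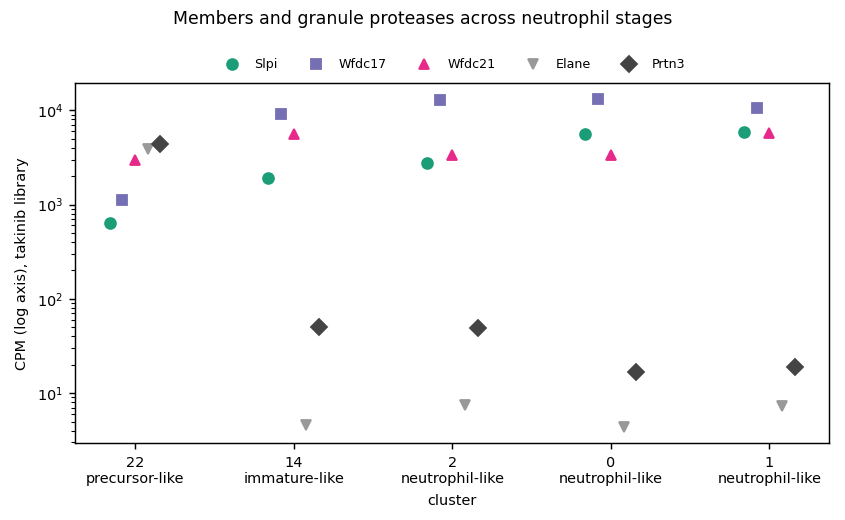
CPM (log axis) of Slpi, Wfdc17, Wfdc21 and the granule proteases Elane and Prtn3 in 5 clusters of the takinib library, from precursor-like (cluster 22) through immature (14) to mature neutrophil-like cells (2, 0 and 1), with 1 library and no replicate error. Elane and Prtn3 peak in cluster 22, at 3851 and 4433 CPM, where Slpi, at 631 CPM, is at its lowest.

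Outside neutrophils, cluster 18 held the most Slpi per UMI in vehicle among units of at least 30 cells, and in takinib stood at about the level of the neutrophil-like class. It was led by Dcn, Serpinb2 and Timp1, and was left unnamed because it scored for fibroblast and for mesothelial markers, those of the lining of the body cavities. Slpi stood at 3239 CPM [3120.2 to 3361] in its 200 vehicle cells and 5299.7 CPM [5223 to 5377] in its 283 takinib cells, log2 0.71 [0.65 to 0.77]. That ratio is below 1, unlike those of Wfdc17 and Wfdc21 in the same cluster, at 2.63 and 3.92, while 8.58% of 7397 genes passed 1 upward. With the neutrophil RNA described below subtracted, those of Wfdc17 and Wfdc21 turned to -0.59 and -4.41, the latter from counts at or near the floor of 3. Slpi differed between its cells with the UMIs of mesothelial markers (Msln, Upk3b, Lrrn4, Wt1 and Muc16). In vehicle, cells with none of their UMIs (96 cells) held 18.6 CPM [6.04 to 43.4], cells with 1 to 2 (46) held 1273 CPM [1116 to 1446], and cells with at least 3 (58) held 6263 CPM [6022 to 6511]. In takinib the same tiers held 1609.5, 4640.4 and 7269.7 CPM, in 89, 96 and 98 cells. Slpi was higher in each tier than in the one before in both libraries, and the libraries were closest in the highest tier. Col1a1, the main fibrillar collagen of fibroblasts, was lowest in the highest tier of both libraries, at 8521, 8425 and 2008 CPM over the 3 tiers in vehicle and 6103, 6489 and 3308 CPM in takinib. A cell of more UMIs reaches a tier more easily, and this was not corrected for. S100a8 stood at 59.5 and 8384 CPM in the lowest tier of vehicle and takinib, and its part in the Slpi difference there was not tested. Fibroblast-like cells proper (422 cells in vehicle) held 12 CPM [7.3 to 18.5].

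Plasma-like cells, which carried Jchain, Mzb1 and Xbp1, were the other strong source of Slpi. They held 3198 CPM [2966 to 3443] in vehicle (34 cells) and 5860.1 CPM [5753 to 5969] in takinib (201 cells), while B-like cells held 23.1 and 236 CPM. The vehicle cells number under 100, so no ratio is given. A single vehicle cell held 313 of their 704 Slpi UMIs, and 47.1% of the vehicle cells held any. Slpi differed between plasma-like cells by the heavy chain they made. Cells whose leading heavy chain gene was Igha, that of IgA, held 531 CPM [424 to 655] in vehicle (25 cells) and 1031 CPM [964 to 1102] in takinib (77 cells). Cells led by any Ighg gene, those of IgG, held 11098 CPM [10219 to 12032] in vehicle (8 cells) and 13249 CPM [12904 to 13602] in takinib (40 cells). In vehicle 1 of the 8 cells held 313 of their 588 Slpi UMIs, and 62.5% of them held any. The counting interval takes no account of this unevenness. The IgG cells were above the IgA cells in both libraries, and takinib IgM cells (84 cells, led by Ighm) lay between at 7388 CPM. The median IgG cell had 41 Slpi UMIs in vehicle and 53.5 in takinib, and the median IgA cell 0 and 2. Jchain was ordered the other way, at 41580.3 CPM in takinib IgA cells and 7622 CPM in takinib IgG cells. S100a8 in takinib was 5645 CPM in IgA, 5588.5 in IgM and 2499.5 CPM in IgG cells, and S100a9 4286, 5025 and 2226 CPM. The part of neutrophil RNA in the Slpi of these takinib cells was not tested. The grouping was chosen after the values were seen, and only 8 vehicle cells were led by an Ighg gene.

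**Figure D3:**
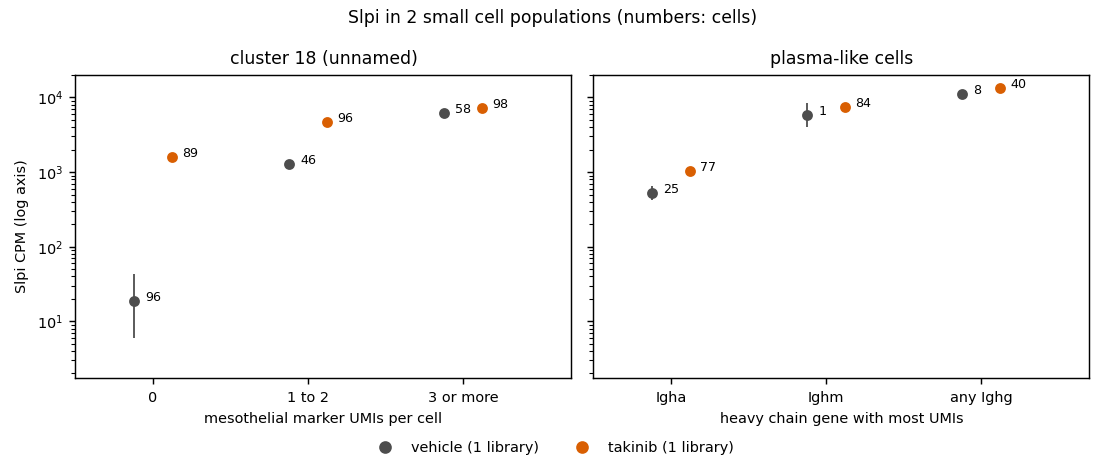
Slpi CPM (log axis) in cluster 18 by the UMIs of mesothelial markers per cell, and in plasma-like cells by their leading heavy chain gene. Grey is vehicle and orange takinib, lines are 95% counting intervals, and each point carries its number of cells. In both libraries Slpi is higher with more mesothelial UMIs and, among plasma-like cells, lowest in those led by Igha.

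Among macrophages Slpi was low and uneven. All macrophage-like cells held 68.3 CPM [64.8 to 71.9] in vehicle (4803 cells) and 478 CPM [470.4 to 486] in takinib (3998 cells), log2 2.81 [2.73 to 2.89]. Slpi, Wfdc17 and Wfdc21, 3 of the 4 members, passed 1 upward there, against 6.04% of 11399 genes. Different clusters make up that class in each library, and cluster 11, led by Mmp12 and with 817 takinib cells, held 1037 CPM. Neutrophil marker genes summed to 13808 CPM in these takinib cells, against 2903 CPM in takinib cells of cluster 6. The part of neutrophil RNA in the Slpi of cluster 11 was not tested. Within clusters present in both, Slpi stood at 27.9 and 106 CPM in cluster 3, led by MHC class II genes, at 74.4 and 137 CPM in the Gpnmb cluster 5, and at 142 and 505 CPM in cluster 6, led by Alox15 and Apoe. Neutrophil RNA in the same takinib cells would carry 105 CPM in cluster 3, about the measured value, and 80.4 CPM in cluster 5 and 115 CPM in cluster 6, both below the measured values. These amounts are the S100a8 plus S100a9 UMIs of the cluster times the Slpi to S100a8 plus S100a9 ratio of neutrophil-like cells. With the neutrophil profile subtracted, the log2 ratio was 1.63 over all macrophage-like cells and 1.49 in cluster 6. It turned to -0.38 in cluster 5 and to -3.24 in cluster 3, where the takinib count left was at the floor of 3. In the cycling cluster 20 (203 and 190 cells) it was 2.11 before and 0.82 after the subtraction. The monocyte or macrophage-like cluster 4, led by Saa3, F13a1 and Arg1 and nearly all from takinib (10 and 2282 cells), held 2010.3 CPM [1987 to 2034] of Slpi, 213 UMIs per 1000 UMIs of S100a8 plus S100a9. In neutrophil-like cells that figure was 45.7. Neutrophil RNA in proportion to its S100 transcripts would give 431 CPM.

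Droplets also take up free RNA released by other cells, so low levels in other classes were set beside measures of it. Vehicle barcodes of 1 to 100 UMIs, which hold free RNA, gave 73.6 CPM [54.3 to 97.6] of Slpi, 99.6 of Wfdc2, 544 of Wfdc17 and 39.9 CPM of Wfdc21. The takinib table held no barcode under 500 UMIs, so neutrophil S100a8 plus S100a9 served as the tracer there. Over B-like, T or NK-like, endothelial-like, epithelial-like, dendritic-like, fibroblast-like and erythroid-like takinib cells, Slpi ranged from 211 to 1075 CPM, but from 32 to 51.0 UMIs per 1000 of the tracer, around the 45.7 of neutrophil-like cells. Over the same classes in vehicle (6, without erythroid-like cells) Slpi was 0 to 23.1 CPM, in all below the free RNA value. In these takinib classes Slpi was thus present in about the ratio to S100 transcripts that it has in neutrophil-like cells, and S100a8 plus S100a9 itself ranged from 4143 to 24345 CPM. The log2 ratio of Slpi against vehicle was 7.55 [6.70 to 8.56] in endothelial-like, 3.35 in B-like and 4.98 in epithelial-like cells. With the neutrophil profile subtracted it was 0.48, 0.07 and 1.46, and 2.52 in epithelial-like cluster 7 and 0.90 in cluster 8. A ratio past 1 thus remained in epithelial-like cells and in cluster 7, but not in the other 3. In the same 7 classes Wfdc21 stood at 33.7 to 70.9 per 1000 against 35.7. Wfdc17 lay somewhat above neutrophil RNA everywhere, at 126 to 199 against 108, and macrophages, its other source, were not part of the tracer. By contrast Slpi stood at 542 per 1000 in cluster 18 and 648 in plasma-like cells, whereas Wfdc17 and Wfdc21 in cluster 18 were near neutrophil RNA at 120 and 35.8. In the classes compared, all 4 members passed a log2 ratio of 1 upward in T or NK-like (background 6.99% of genes) and epithelial-like cells (7.71%), and Slpi, Wfdc17 and Wfdc21 in endothelial-like cells (4.46%). In B-like cells (7.28%) those 3 passed it among genes of at least 50 UMIs. With the neutrophil profile subtracted, Wfdc21 turned to -4.44 in epithelial-like, -2.19 in endothelial-like and -0.65 in B-like cells, from counts at or near the floor of 3. Wfdc17 stayed at 2.67 in epithelial-like and 2.19 in endothelial-like cells. In T or NK-like cells Wfdc2 turned to -0.23 against vehicle cells with Xist alone.

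**Figure D4:**
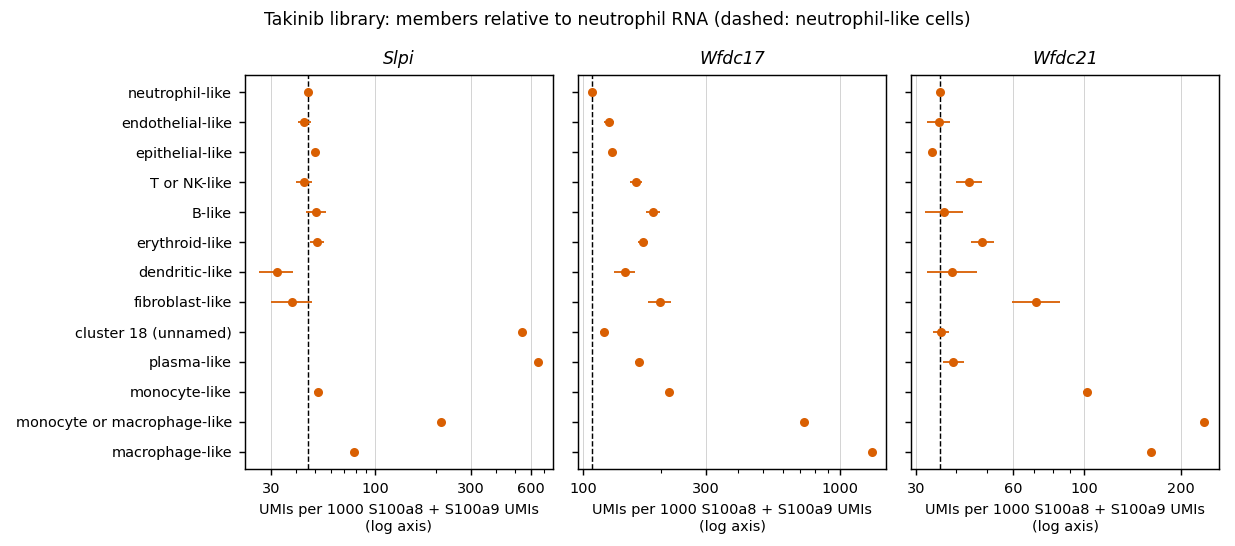
UMIs of Slpi, Wfdc17 and Wfdc21 per 1000 UMIs of S100a8 plus S100a9 (log axis) in the cell classes of the takinib library. The dashed line is the value of neutrophil-like cells, and lines at the points are 95% counting intervals of the member's UMIs alone. Slpi stays near the line in 7 classes and stands at 542 in cluster 18, 648 in plasma-like and 213 in monocyte or macrophage-like cells.

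Wfdc2 was the epithelial member, and it was higher in the takinib epithelium. Epithelial-like cells held 607 CPM [593 to 622] in vehicle and 1822 CPM [1804 to 1839.7] in takinib, log2 1.58 [1.55 to 1.62], a 3-fold higher level. A UMI of it was found in 55.3% [52.8 to 57.7] and 77.1% [75.1 to 79] of those cells, and after thinning to 1000 UMIs in 28.4% and 54.7%. T or NK-like cells, which should lack it, had a Wfdc2 UMI in 1.39% and 5.73% of cells, and after thinning in 0.926% and 4.09%. Median depths of the epithelial-like cells were 5086 and 9211 UMIs. The difference held within both large epithelial clusters. In cluster 7, led by Mmp7, Gkn3 and Dmbt1, Wfdc2 stood at 933 CPM [902 to 965] (537 cells) and 2102 CPM [2078 to 2125] (1072 cells), log2 1.17 [1.12 to 1.22], where 8.34% of 11313 genes passed 1 upward. In cluster 8, led by Cdkn2a, Hmga2 and Krt7, it stood at 445 CPM [428 to 461] (975 cells) and 1403 CPM [1372 to 1435] (497 cells), log2 1.66 [1.60 to 1.72], where 6.55% of 10178 genes passed. Cluster 7 was thus the higher of the pair in both libraries, and the difference between libraries was larger in cluster 8.

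The smaller epithelial clusters were mixed. Cluster 27 held 531 CPM [475 to 591] in vehicle (89 cells) and 194 CPM [156 to 238] in takinib (80 cells), but its cells were unlike in the libraries. Goblet and intestine genes, which led the cluster, summed to 28911 CPM in its vehicle cells and 29.8 CPM (14 UMIs) in its takinib cells, so the takinib cells do not carry the genes that lead the cluster and the levels are not set against each other. The takinib cells also carried 31174 CPM of S100a8 plus S100a9, against 206 in vehicle. Cluster 23, led by the gastric gene Gkn2, held 140.2 CPM [113 to 172] in its 225 takinib cells. Acinar-like cells held 249 CPM [190.2 to 321] in vehicle, from 40 cells. In the vehicle epithelium, cells with Xist and no Y-linked UMIs held 401 CPM [367 to 437] and cells with Y-linked and no Xist UMIs 656 CPM [636 to 677]. Against these the epithelial log2 ratio was 2.18 and 1.47, so the direction held against either, and in cluster 7 it was 1.74 and 0.93. Elsewhere Wfdc2 was at or below 38.1 CPM in every other compared class and in every neutrophil and macrophage cluster. Among smaller classes, takinib fibroblast-like cells stood at 245 CPM, whose 60 UMIs lay in 5.08% of 59 cells. Lists of epithelial genes of single organs were read beside Wfdc2 over all kept cells, and none of their genes passed a log2 ratio of 1 upward. None of 8 stomach genes passed it in either direction (median -0.39), nor did any of 3 lung genes with at least 50 UMIs (median 0.25). All 7 of 7 goblet and intestine genes passed it downward (median -3.57), against 17.3% of all genes. Within cluster 7, 6 of 8 stomach genes passed 1 downward (median -1.07), and they summed to 24435 CPM in the vehicle and 12389.9 CPM in the takinib cells, where Wfdc2 was higher. The share of all genes that passed 1 downward in cluster 7 was not counted. The part of these shifts in the Wfdc2 ratios was not tested.

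Wfdc17 was a transcript of macrophages in vehicle and of both neutrophils and macrophages in takinib. Neutrophil-like cells held 534 CPM [459.9 to 616] in vehicle, close to the 544 CPM of free RNA, and 12263 CPM [12221 to 12305] in takinib. Within cluster 2 the values were 515 and 12821 CPM, log2 4.64 [4.42 to 4.86]. Macrophage-like cells held 1905 CPM [1886 to 1924] and 8129.5 CPM [8097 to 8162], log2 2.09 [2.08 to 2.11]. Within each macrophage cluster shared by both libraries the ratio was smaller. Within cluster 3, the main vehicle cluster (2503 vehicle and 179 takinib cells), Wfdc17 stood at 1467 and 1764 CPM, log2 0.27 [0.20 to 0.34]. Cluster 6 gave log2 0.95 [0.91 to 0.99], cluster 5 1.32 [1.29 to 1.35], and the cycling cluster 20 1.61 [1.54 to 1.68]. Against vehicle cells with Y-linked and no Xist UMIs alone, that of Wfdc17 in cluster 5 was 0.74 and that in cluster 20 2.24. In these clusters 2.68%, 1.81%, 5.3% and 4.02% of genes passed 1 upward. The highest macrophage levels were in clusters held almost wholly by takinib: 11069 CPM in cluster 11 and 9345 CPM in cluster 15, led by Ccl8 and Pf4. In all 6 macrophage clusters of takinib Wfdc17 was at 768 to 4645 UMIs per 1000 of the S100 tracer, well above the 108 of neutrophil-like cells. Monocyte-like cells held 2682 CPM [2483 to 2892] (99 cells) and 3343 CPM [3282 to 3405] (720 cells), a smaller gap than in neutrophil-like cells. Alveolar macrophage genes were read beside it. Within macrophage-like cells 4 of 7 passed a log2 ratio of 1 upward, against 6.04% of all genes, and 2 downward (median 1.02). They summed to 3519 CPM in the vehicle and 10888 CPM in the takinib cells. Within cluster 5, 0 of 7 of these genes passed 1 upward and 2 downward (median -0.17), and within cluster 6, 2 of 5 upward and 0 downward (median 0.19). Their part in the Wfdc17 ratio was not tested. Over all kept cells the list had 2 of 7 upward and 1 downward (median 0.24), against 8.34% and 17.3% of all genes. Ear2, Chil3, Car4 and Marco were among the leading genes of clusters 5 and 11.

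Wfdc21 was found in the neutrophil-like and macrophage-like cells that held Wfdc17, at lower levels there, whereas in takinib precursor-like cells it was the higher of the pair. In neutrophil-like cells it stood at 248 CPM [199 to 306] and 4047 CPM [4023 to 4071], and within cluster 2 at 239 and 3379.9 CPM, log2 3.82 [3.51 to 4.15]. Macrophage-like cells held 162 CPM [157 to 168] and 986 CPM [975 to 997], log2 2.60 [2.55 to 2.66]. Unlike Wfdc17, Wfdc21 passed a log2 ratio of 1 in each of the 4 shared macrophage clusters: 2.62 [2.34 to 2.89] in cluster 3, 1.38 [1.29 to 1.48] in cluster 5, 1.41 [1.32 to 1.50] in cluster 6 and 1.29 [1.14 to 1.44] in cluster 20. In cluster 3 the vehicle level was only 28.1 CPM, below free RNA at 39.9, and the takinib level 173 CPM. The other 3 clusters held 285 to 347 CPM in vehicle. With the neutrophil profile subtracted, the ratios of clusters 3, 5, 6 and 20 were 1.74, 1.29, 1.26 and 1.04. Against the vehicle cells with Xist and no Y-linked UMIs alone, the ratio was just under 1 in clusters 3 and 6, at 0.996 in each, with 1.34 in cluster 5 and 1.30 in cluster 20. Takinib cluster 4 held 2216 CPM and cluster 11 1636 CPM. Monocyte-like cells held 159.6 and 1583 CPM. In vehicle macrophages, cells with Xist and no Y-linked UMIs held 290.2 CPM [269.8 to 312] and those of the reverse kind 155 CPM [145 to 165], so the macrophage log2 ratio was 1.76 against the former.

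**Figure D5:**
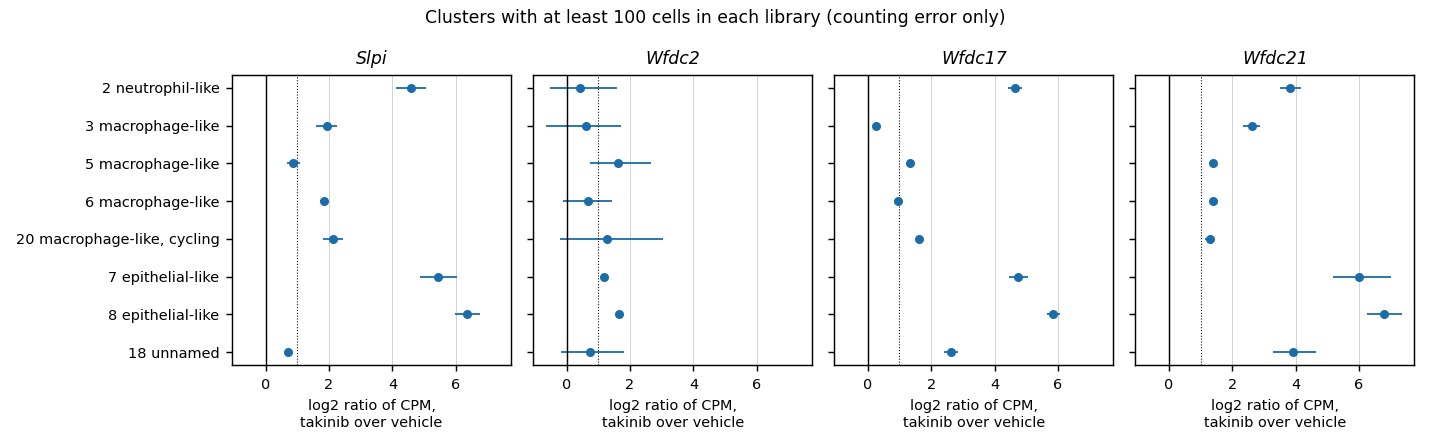
Log2 ratio of CPM, takinib over vehicle, of each member within the 8 clusters that had at least 100 cells in each library and are not a whole class. Lines are 95% intervals for counting error alone, the solid line marks 0 and the dotted line 1. In neutrophil-like cluster 2 Slpi lies at 4.58, Wfdc17 at 4.64 and Wfdc21 at 3.82, while Wfdc17 in macrophage-like cluster 3 lies at 0.27. In takinib cells of epithelial-like clusters 7 and 8 these 3 genes stand close to the ratio to S100 transcripts of neutrophil-like cells, Slpi at 52 and 46.6 per 1000.

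The genes most like each member were sought by Pearson correlation of log2(CPM + 10) over 47 cluster and library units with at least 50 cells, among 11780 genes. The units share libraries and free RNA, so r is a description. Slpi was most like Hp (r = 0.881), Saa3 (0.879), Chil1 (0.874), Tiparp and Acod1. Hp and Saa3 encode the acute-phase proteins haptoglobin and serum amyloid A3. Wfdc2 was most like Urah (0.934), Kdf1, Epn3, Erbb3 and Grb7, of which Erbb3 encodes a receptor of the EGF receptor family. Wfdc17 was most like Fcer1g (0.922), the shared Fc receptor gamma chain, then Clec4d, Igsf6, Fth1 and Bst1. Wfdc21 was most like Clec4e (0.939), the lectin Mincle, then the formyl peptide receptor Fpr2, Clec4d, Cxcl2 and Fpr1. Among members, r was 0.921 for Wfdc17 with Wfdc21, 0.796 for Slpi with Wfdc21, 0.737 for Slpi with Wfdc17, and -0.221 to -0.01 for Wfdc2 with the other 3.

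The rest of the WAP family was mostly silent at this depth. Of 19 other WAP-domain genes, 4 reached 50 UMIs in a library over all kept cells and 4 had none in either (Wfdc5, Wfdc6b, Wfdc13 and Wap). Among the 4 (Wfdc1, Wfdc15b, Wfdc18 and Wfikkn1), only Wfdc15b passed a log2 ratio of 1, with 35 and 308 UMIs, and the median was 0.34. Wfdc18, the neighbour between Wfdc17 and Wfdc21, did not share their cells: 1505 of its 1657 vehicle UMIs and 5462 of its 6150 takinib UMIs were in epithelial-like cells. In cluster 7 Wfdc18 stood at 307 and 365 CPM, a smaller difference than that of Wfdc2.

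Of the proteases that Slpi is known to block, listed with their granule partner Prtn3, Elane and Ctsg came mainly from takinib precursor-like cells. Elane had 13 UMIs in vehicle and 12293 in takinib, of which 11908 were in the 258 precursor-like cells. Ctsg, cathepsin G, had 0 UMIs in vehicle, and 4390 of its 4541 takinib UMIs were in the same cells. Prtn3 differed from both: in vehicle 2483 of its 2658 UMIs were in macrophage-like cells, at 119.6 CPM, against 55.1 CPM in takinib. Over all kept cells 3 of the 5 listed proteases with at least 50 UMIs passed a log2 ratio of 1 upward, against 8.34% of genes. Their median was 1.15 beside -0.31 for all genes. In neutrophil-like cells 0 of 4 passed it upward and 3 downward (median -1.46), where 40.9% of genes passed downward. In macrophage-like cells 1 of 3 passed it upward and 2 downward (median -1.12). Within cluster 2, where Slpi differed most between the libraries among the shared myeloid clusters, Prtn3 stood at 49.5 and 49 CPM.

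Protease inhibitors of other families were mixed. Over all kept cells, 5 of 16 passed a log2 ratio of 1 upward and 1 downward, against 8.34% and 17.3% of all genes, with a median of 0.44. The stefins, cytoplasmic inhibitors of cysteine proteases, form a multigene family whose close copies can share reads. Stfa2l1 stood at 1.28 CPM in vehicle and 625 in takinib, and at 2239, 2070.4 and 1596 CPM in clusters 0, 1 and 2 of takinib. Stfa1 stood at 1648 CPM in immature cells, above the 714, 559 and 487 CPM of clusters 0, 1 and 2, whereas Slpi was lower in immature cells than in those clusters. Cst3, cystatin C, stood at 2234 CPM in vehicle and 1836 CPM in takinib macrophage-like cells, in the opposite direction to Wfdc17 and Wfdc21 there.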

How the data were processed

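Single-cell RNA was measured in 1 vehicle and 1 takinib library, each grouped by its label. The authors deposited raw UMI counts per gene and barcode, made with Cell Ranger 4 for vehicle and 6.1.1 for takinib, per the file headers. The submitters' processing notes name Cell Ranger 2.1.1, STAR 2.0.4b, featureCounts 1.45, Subread, bcl2fastq and the build mm10, with no role or order. There were 704261 vehicle and 34158 takinib barcodes, none of the latter under 500 UMIs, so takinib barcodes had been filtered by depth and its free RNA could not be read directly. Strand use in counting is not given in the sources used here.

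Barcodes were kept with at least 1000 UMIs, 500 genes and at most 20% mitochondrial UMIs. The 6% with the highest Scrublet score (scanpy 1.11.5) were removed in each library, 592 and 1607 barcodes. Both libraries were clustered together without the WAP-domain and mitochondrial genes (2000 variable genes, 30 components, 15 nearest neighbours), by the Leiden method of igraph 0.11.9 at resolution 1 and seed 1, with no correction between libraries. Clusters were named from marker lists by a rule set after the data were seen: at least 3 markers detected in 10% of cells with a scaled level above 0.2, and a second class scoring below 0.75 of the best. Exceptions were made where the second class was close. T with NK and monocyte with macrophage were given joint names, and immature neutrophil followed by neutrophil kept the immature name. Clusters 21 and 30 were left unnamed by hand because leading genes of another cell type stood among theirs. A difference from other accounts of these cells may come from these rebuilt names.

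Counts were summed per class and library. Ratios of CPM used no pseudocount and were made for units of at least 100 cells in each library, with a floor of 3 counts for a count of 0. The background of each comparison is the share of genes with at least 50 counts in a library whose log2 ratio passed 1. The scripts were tested on simulated data. The members and gene lists were chosen with earlier results of these data known. Genes named are the members, listed genes with at least 50 counts in the class described, and for each member the 5 genes with the highest correlation among those with at least 500 counts. Marker genes, heavy chain genes and genes that lead a cluster are named as descriptions, and the splits of cluster 18 and of the plasma-like cells were added after the data were seen. Alternatives covered cell filters, doublets, origin of vehicle cells, thinning, centring, a pseudocount, the denominator, neutrophil RNA and clustering. The alternatives without shared barcodes and without neutrophils were chosen after seeing the data.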

Additional observations from a re-analysis of the deposited data

How the results depend on the processing

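Over all kept cells the log2 ratios of Slpi, Wfdc17 and Wfdc21 were past 1 under each of 11 alternatives and that of Wfdc2 under 6, and none of the 4 changed sign. For Slpi, Wfdc2, Wfdc17 and Wfdc21 in that order they were 3.55, 1.15, 2.37 and 3.98 with at least 2000 UMIs and 1000 genes per cell, and 3.71, 0.90, 2.51 and 4.09 with at most 10% mitochondrial UMIs. Against vehicle cells with Xist alone they were 4.28, 1.59, 2.24 and 3.44, and against vehicle cells with Y-linked genes alone 3.59, 0.43, 3.04 and 4.72. With cells thinned to 1000 UMIs they were 5.02, 0.50, 3.09 and 4.81, and centred on the median gene 4.30, 1.33, 2.95 and 4.57. Without the 3 neutrophil classes, an alternative chosen after seeing the data, they were 3.17, 1.44, 2.20 and 3.48. Without doublet removal Slpi was 3.90, Wfdc2 0.98 and Wfdc17 2.66, and with 10 CPM added Slpi was 3.89, Wfdc2 0.97 and Wfdc21 4.13. Wfdc17 was 2.62 with CPM taken without S100a8, S100a9 and mitochondrial UMIs. The cause of these shifts was not tested.

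Within classes and clusters, 590 alternative values of 56 ratios were compared with the counting interval of the main ratio. Of these, 393 stayed within it, and 10 changed sign where that interval excluded 0. The other 187 left it. A change of sign was not counted where the interval held 0, as for Wfdc2 in endothelial-like cells, at 0.02 and down to -0.30. With the neutrophil profile subtracted, Wfdc21 became -0.65 in B-like, -2.19 in endothelial-like, -4.44 in epithelial-like, -3.55 in cluster 7, -2.73 in cluster 8 and -4.41 in cluster 18 cells, Slpi -3.24 in cluster 3 and -0.38 in cluster 5, and Wfdc17 -0.59 in cluster 18. Counts left under 3 by the subtraction were set to the floor of 3. The values of Wfdc21, and that of Slpi in cluster 3, rest on counts at or near this floor. They are not read as lower levels in takinib. Against vehicle T or NK-like cells with Xist alone, Wfdc2 became -0.23, from 1 vehicle UMI. No paired analysis was possible because each group holds 1 library. Depth limits the vehicle side of several Slpi ratios, with 51 UMIs in neutrophil-like, 11 in endothelial-like, 9 in B-like and 3 in T or NK-like cells.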
